A study of Mus musculus with 12 samples.

Results

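Kidneys of 4 mice that lack methylmalonyl-CoA mutase were compared with kidneys of 4 wild-type mice, which are 8 of the 12 arrays of the series. The mutants were labelled Mut -/- with the transgene TgINS-Alb-Mut, and the wild-type mice Mut +/+. The members of each group were taken from the sample titles, and 4 Mut +/- heterozygotes entered the fit only for its estimate of the spread. All 12 mice were females of C57BL/6 background that ate a high-protein diet for 2 months, and total RNA of whole kidney was hybridised, 1 array per mouse. The labels used here state no age. The transgene, as background, places Mut under the albumin promoter and so in the liver, where it lets null mice survive. Only the mutants carried it, so effects of the missing gene, of the transgene and of a kidney in a mouse with a corrected liver cannot be told apart. In whole kidney, fewer cells of a type and less RNA per cell cannot be told apart either.

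Methylmalonyl-CoA mutase is a mitochondrial enzyme that turns methylmalonyl-CoA, made from propionate, some amino acids and odd-chain fatty acids, into succinyl-CoA. Without it methylmalonic acid builds up, and a high-protein diet adds to the supply of its precursors. Kidney disease is a known late complication of methylmalonic acidemia, and the proximal tubule, which reclaims filtered protein, sugar, amino acids and ions, is its main site. The design text names the changes behind this disease as the question of the comparison.

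Mmut, the gene of the mutase, was at 8.47, 8.33, 8.21 and 8.42 on the log2 scale in mutants 1 to 4 and at 10.47, 10.50, 10.56 and 10.60 in the wild-type mice. The groups did not overlap, the log2 difference was -2.18 (SE 0.06, limma adjusted p = 1.4e-10), and the two-sided exact permutation p was 0.0286, which is as low as this test can go with 4 arrays on each side. Whether its probes read the disrupted part or the transgene was not determined. Markers of kidney were high on all 8 arrays: Slc34a1, the phosphate transporter of the proximal tubule, lay between 13.17 and 13.43, and Umod, of the thick ascending limb, between 13.17 and 13.34.

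Among the 8 arrays, mutants 3 and 2 stood apart. On mutant 3 the 12 measured markers of the adrenal cortex, which makes steroid hormones beside the kidney, were all higher than on the other 11 arrays, 10 of them by over 2-fold. Cyp11b1, the last enzyme of corticosterone synthesis, was at 12.65 on this array and at 5.79, 5.96 and 5.80 on the other mutants, with wild-type mice at 6.01, 5.59, 5.82 and 5.40. Star, which carries cholesterol into mitochondria, was at 11.99 against 6.77, 6.91 and 6.64 in the other mutants. The mean of the 12 markers was 9.58 on mutant 3, 6.24 to 6.29 on the other mutants and 6.18 to 6.36 in wild-type mice, and that of 6 adrenal medulla markers was 8.45 against at most 7.25 elsewhere among the 8 arrays. Proximal tubule markers averaged 11.81 on mutant 3, 12.04 to 12.24 on the other mutants and 12.33 to 12.37 in wild-type mice. These 11 markers include Kap, one of the largest falls, which lowers the means of all 4 mutants. Of the 11, 2 were called lower both with and without mutant 3. Their median log2 difference was -0.094 with mutant 3 and 0.005 without it. On mutant 2, 46 genes were over 2-fold above each of the other mutants and none was as far below. They included the chemokine Ccl3, at 12.06 against at most 6.93 in the other mutants, the cytokine Il1b at 10.11 against 6.52 and the neutrophil protein S100a8 at 8.57 against 5.56. Mutant 3 had 36 such genes above and 28 below, mutant 1 had 4 and 4, mutant 4 had 8 and 3, and each wild-type array at most 1 either way. Results are therefore given with and without mutant 3, and a gene described as risen or fallen was called in both fits unless a loss is stated.

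**Figure D1:**
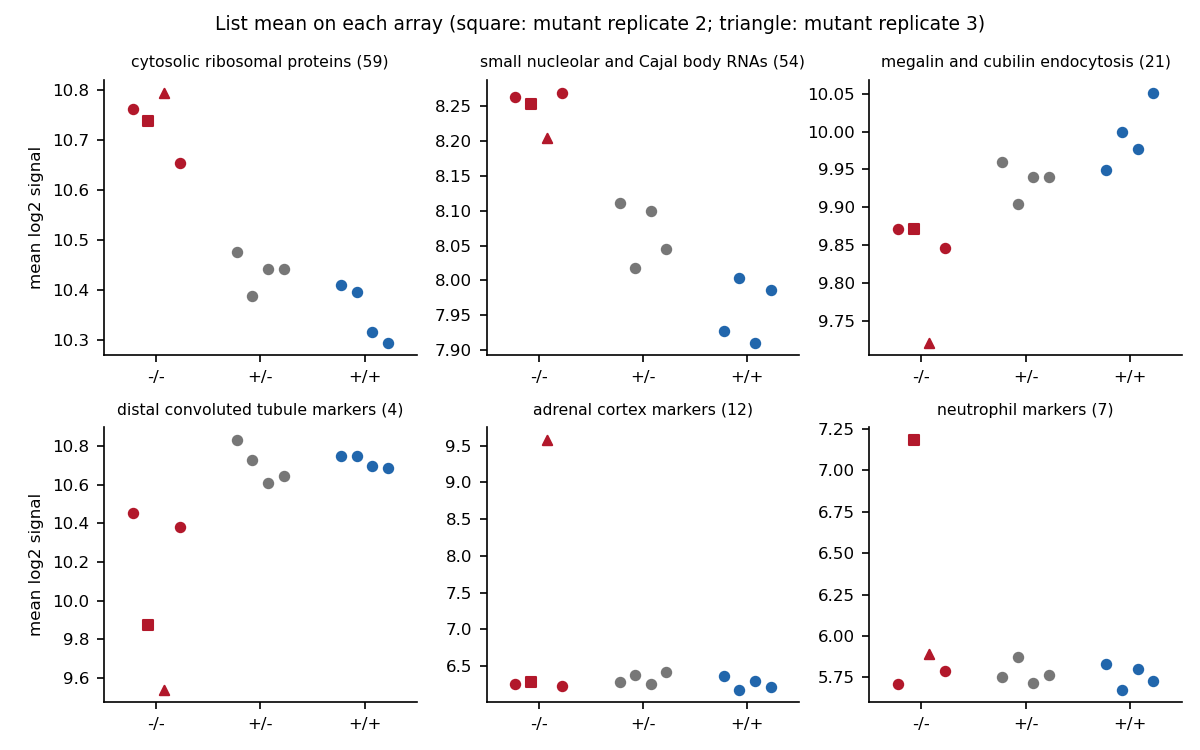
Mean log2 signal of the measured members of 6 lists on each of the 12 arrays, 1 point per array, with the number of members in brackets and a separate vertical scale in each panel. Mutant 3 (triangle) is at 9.58 for adrenal cortex markers and mutant 2 (square) at 7.18 for neutrophil markers, while ribosomal protein means are 10.65 to 10.79 in all 4 mutants against 10.30 to 10.41 in wild-type mice.

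A gene was called when its limma p-value, adjusted over all 19934 genes, was under 0.05. With 12 arrays 1925 genes were called (9.66%), 591 higher (2.96%) and 1334 lower (6.69%) in mutants. Without mutant 3 the calls numbered 1553 (7.79%), of which 502 were higher (2.52%) and 1051 lower (5.27%). The fits shared 1380 genes, all in the same direction, which is 71.7% of the first set and 88.9% of the second. Leaving out mutant 3 ended 545 calls, 171 higher and 374 lower, and brought 173, of which 82 were higher and 91 lower. The count was 1125 without wild type replicate 2 and 1019 without wild type replicate 4. Calls that held with 12 arrays and in each of the 12 fits without 1 array numbered 909 (4.56%), 283 higher (1.42%) and 626 lower (3.14%). The 4 mutant arrays lay apart from the 4 wild-type arrays, with no overlap, for 2940 genes (14.7%), above them for 1066 (5.35%) and below them for 1874 (9.4%).

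The changes were mostly small. The median called gene was 1.24-fold higher or 1.23-fold lower, 207 called genes reached 1.5-fold (1.04%), 81 higher (0.406%) and 126 lower (0.632%), and 22 rises and 32 falls exceeded 2-fold. Of these, 21 rises and 32 falls were also called without mutant 3, where 168 called genes reached 1.5-fold (0.843%), 78 higher (0.391%) and 90 lower (0.451%). The calls were concentrated among bright genes: in the dimmest of 5 equal groups 0.627% were called higher and 0.828% lower, and in the brightest 5.89% and 16%. By chromosome the called share ran from 7.61% on chromosome 7 to 13.8% on chromosome 3, leaving out Y and the mitochondrial genome. The counts of gene lists that follow stand against 9.66% called over all genes and, since most lists hold bright genes, against the 5.89% higher and 16% lower of the brightest group; a share near these is no result about the list. Of the 40 tested genes nearest to Mmut on chromosome 17, 20 on each side, 4 were called (10%), against 11% of the whole chromosome. Of these 4, the call of Enpp5 (log2 difference -0.25) held in each fit that left out 1 array and those of Mep1a, Adgrf1 and 9130008F23Rik did not.

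**Figure D2:**
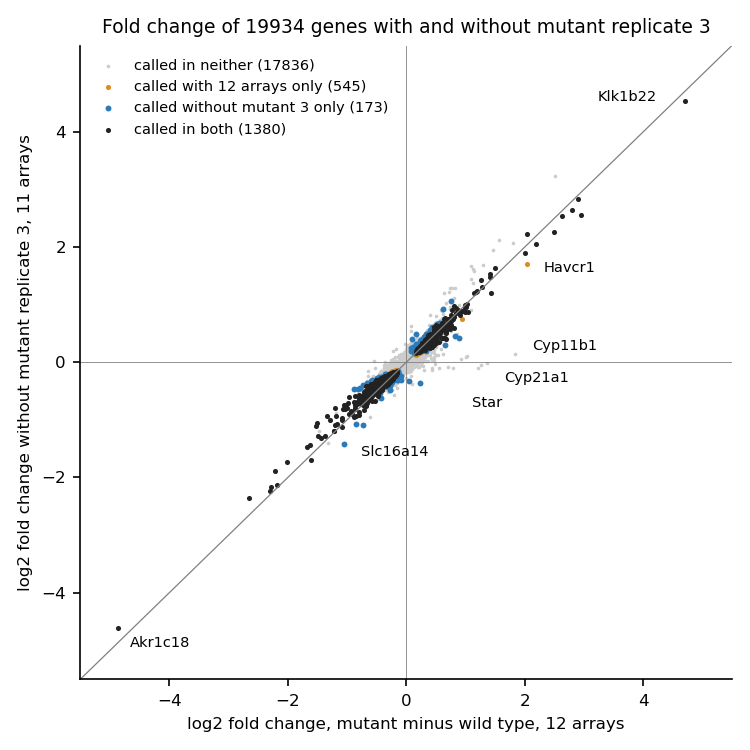
Log2 fold change of each of the 19934 genes with all 12 arrays (horizontal) and without mutant replicate 3 (vertical), with the line of equality. The 1380 genes called in both fits lie close to that line, while the adrenal genes Cyp11b1, Cyp21a1 and Star drop from 1.84, 1.37 and 1.26 to 0.14, -0.02 and -0.05.

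**Figure D3:**
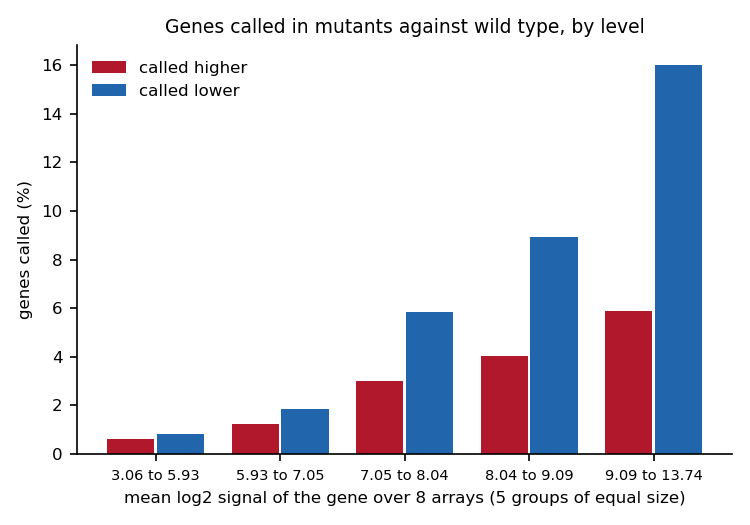
Percentage of genes called higher (red) or lower (blue) in mutants, in 5 groups of equal size by mean log2 signal over the 8 arrays. Both shares grow with the level, and the falls reach 16% among the brightest genes against 5.89% for the rises.

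Steroid and hormone metabolism held the deepest fall. Akr1c18, the enzyme that inactivates progesterone, was at 6.36, 6.60, 5.73 and 7.28 in the mutants and at 11.77, 11.23, 11.04 and 11.44 in wild-type mice. Every mutant was more than 3 log2 units below every wild-type mouse, and the log2 difference was -4.87 (SE 0.38, adjusted p = 1.57e-05). Of 27 steroid metabolism genes 5 fell and 2 rose with 12 arrays, and 6 fell and none rose without mutant 3. Hsd17b14 and Hsd17b2, both 17-beta-hydroxysteroid dehydrogenases, fell by 0.76 and 0.43 on the log2 scale. Mutant 3, the array with high adrenal markers, had the lowest Akr1c18 of the 8, and its part in the counts of this list was not tested beyond the fit without it.

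Kap, Igf2 and Dio1, from different lists, were among the 12 largest falls. Kap, an androgen-regulated protein of the proximal tubule, was at 11.44 and 11.42 in mutants 1 and 4, at 9.87 and 9.75 in mutants 2 and 3, and at 13.23 to 13.31 in wild-type mice. The insulin-like growth factor gene Igf2 split the mutants in the same way, at 9.97 and 10.08 in mutants 1 and 4 and at 7.85 and 7.95 in mutants 2 and 3, below all wild-type mice at 11.11 to 11.30. Both genes were called with and without mutant 3, Kap with log2 differences of -2.65 and -2.36 and Igf2 with -2.22 and -1.88 (adjusted p = 0.00567 and 0.0108). The thyroid hormone deiodinase Dio1 was at 7.70, 6.96, 6.29 and 7.63 in mutants against 8.95 to 9.32, a log2 difference of -2.02 (SE 0.24, adjusted p = 0.000329). Of 13 thyroid hormone genes 4 fell and none rose, 2 of them without mutant 3. No member of that list was higher at an unadjusted p under 0.05 either, by limma. The growth hormone and insulin-like growth factor list had 4 falls and 1 rise of 24, and 3 falls without mutant 3. Its other steady members were the growth hormone receptor Ghr, at 11.58 to 12.14 in mutants and 12.28 to 12.41 in wild-type mice (log2 difference -0.41), and the insulin receptor substrate Irs1 (log2 difference -0.33).

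Genes of plasma carriers, which are better known from liver, held 5 falls and 2 rises among 34 (20.6% called), with or without mutant 3, and the median log2 difference of the list was 0.055 with it and -0.018 without it. Ttr, the carrier of thyroxine and retinol-binding protein, was at 8.99, 8.56, 8.36 and 8.26 in mutants and at 10.29, 10.98, 11.16 and 10.96 in wild-type mice (log2 difference -2.30, adjusted p = 0.000118). Alb, for albumin, was at 8.49, 8.37, 7.56 and 8.36 against 9.43 to 10.24 (log2 difference -1.68). The groups did not overlap for either gene. Coagulation factor V, F5, fell by 0.97 on the log2 scale. Further members, named after their values were seen, were Apob, which carries triglyceride-rich lipoproteins and fell by 0.71, Rbp4, the retinol carrier, which fell by 0.60, and Apoe, the ligand of lipoprotein receptors, which was 0.76 higher. Hepatocyte markers averaged 6.21 to 6.65 in mutants and 6.45 to 6.55 in wild-type mice, so their ranges overlapped, and 1 of 7 fell.

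**Figure D4:**
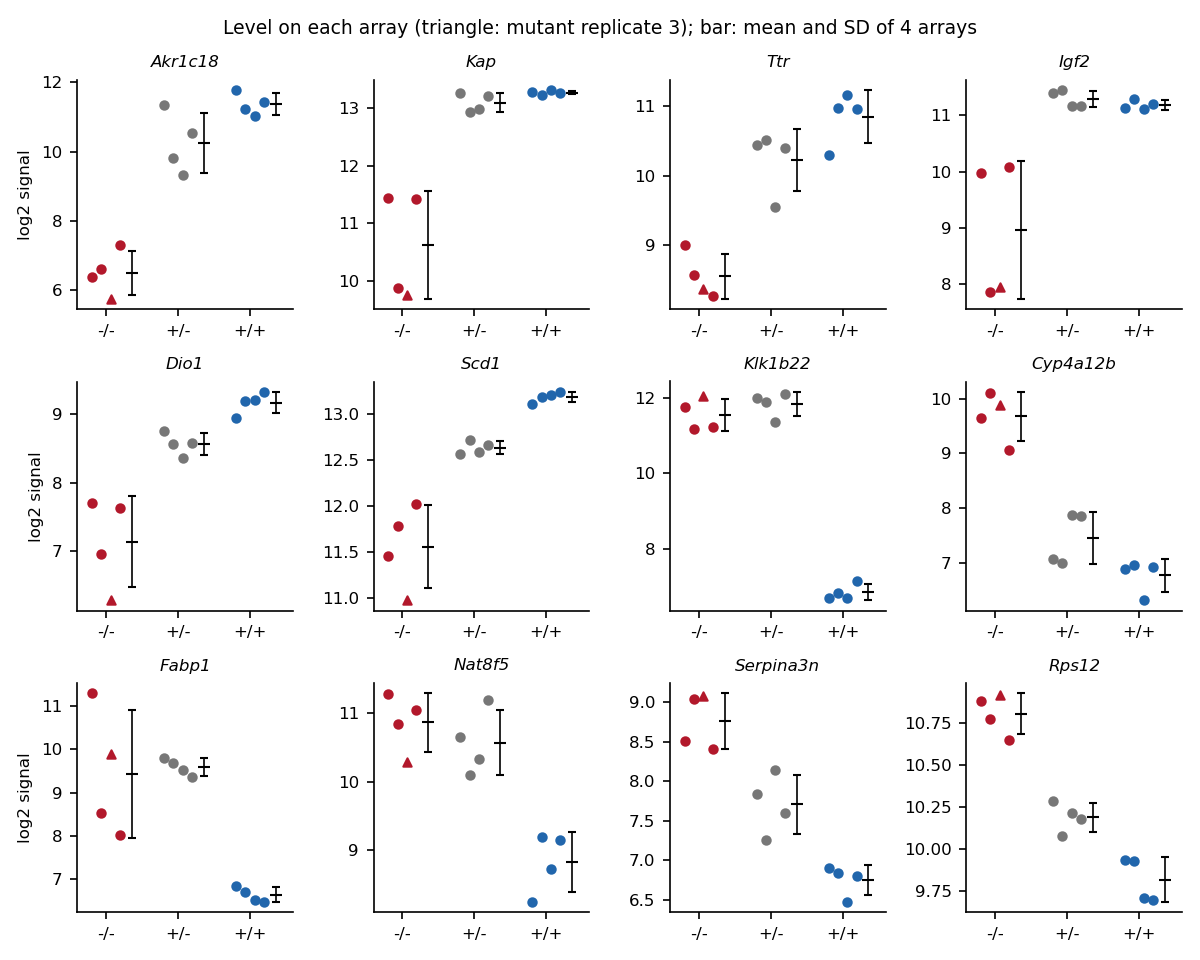
Log2 signal of 12 genes on each array, with mutants (-/-), heterozygotes (+/-) and wild-type mice (+/+) side by side, mutant replicate 3 as a triangle and the mean and SD of 4 arrays beside the points. Mutants and wild-type mice do not overlap in any panel, and heterozygotes lie with the mutants for Klk1b22 (mean 11.84) and with wild-type mice for Kap (mean 13.10).

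Among the largest rises were enzymes of fatty acid and xenobiotic oxidation. Cyp4a12b, a fatty acid omega-hydroxylase, was at 9.65, 10.10, 9.88 and 9.07 in mutants and at 6.89, 6.96, 6.32 and 6.94 in wild-type mice (log2 difference 2.90, SE 0.24, adjusted p = 3.16e-05). Its neighbour Cyp4a12a rose by 2.63, but the genes are near-identical and the array may not separate them. Of 50 phase I genes 11 rose and 6 fell (34.0% called), or 10 and 3 without mutant 3. Their other rises, named after the values were seen, included the retinaldehyde dehydrogenase Aldh1a1, at 9.55 to 10.09 in mutants and 8.67 to 8.91 in wild-type mice (log2 difference 0.99), and the pyrimidine-degrading Dpys (log2 difference 0.81). Cyp2d12 fell by 1.16 on the log2 scale. Phase II conjugation had 5 rises and 3 falls among 41 genes (19.5% called, median log2 difference 0.017), and 5 and 4 without mutant 3. Its rises were led by Nat8f5, of an acetyltransferase family, at 10.29 to 11.28 in mutants and 8.24 to 9.19 in wild-type mice (log2 difference 2.04), and by the microsomal glutathione transferase Mgst1 (log2 difference 1.0). Of 49 peroxisomal genes 7 rose and 2 fell with 12 arrays (18.4% called, median log2 difference -0.005), and 8 and 2 without mutant 3. Both shares are near that of the brightest genes. Acox2, which shortens branched-chain acids and bile acid precursors, rose by 0.51, and Pex11a, a factor of peroxisome division, by 0.45. Agps, of ether lipid synthesis, fell by 0.45 on the log2 scale.

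The list of triglyceride and lipid droplet genes held 7 rises and 1 fall among its 39 members, with or without mutant 3 (20.5% called, near the share of the brightest genes, with a median log2 difference of -0.006). The fatty acid binding protein Fabp1 was at 11.30, 8.53, 9.90 and 8.01 in mutants and at 6.47 to 6.84 in wild-type mice, so all 4 mutants were higher while differing among themselves by over 3 log2 units. Mogat1, which joins fatty acids to monoacylglycerol, was at 10.07, 9.81, 9.30 and 9.70 against 7.89 to 8.41 (log2 difference 1.5, SE 0.18, adjusted p = 0.000366). G0s2, an inhibitor of the lipase that opens lipid droplets, rose by 0.94, at 8.92 to 9.59 in mutants against 8.33 to 8.50. Of genes named after their values were seen, Fitm1, of lipid droplet formation, rose by 0.71 and the fatty acid receptor Cd36 fell by 0.63. The desaturase Scd1 was at 11.46, 11.78, 10.97 and 12.03 in mutants and at 13.11 to 13.24 in wild-type mice (log2 difference -1.63).

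The kallikrein Klk1b22, a serine protease whose kidney level is known to be higher in males, was at 11.76, 11.16, 12.04 and 11.23 in mutants and at 6.70, 6.83, 6.69 and 7.15 in wild-type mice (log2 difference 4.71, SE 0.20, adjusted p = 1.95e-08). The heterozygotes lay between 11.37 and 12.10, within the range of the mutants or just above it. Whether the groups were littermates is not stated in the labels used here, and heterozygotes were also nearer to the mutants for Fabp1 and Nat8f5 (means 9.59 and 10.57). Of 9 Klk1 kallikreins this was the only rise, and 2 fell, in both fits. Probes can confuse members of this family. Of 18 kidney genes listed as higher in male mice 5 rose and 1, Kap, fell, or 7 and 1 without mutant 3, and of 6 listed as higher in females 1 rose and 1 fell, or 1 and 2 without it. The acute phase inhibitor Serpina3n was at 8.51, 9.04, 9.08 and 8.41 against 6.48 to 6.90, and the adipokine Rarres2 at 10.28 to 10.90 against 8.97 to 9.18 (log2 differences 2.01 and 1.41). Lcn2, a marker of tubular injury, was at 8.35 and 9.69 in mutants 1 and 4 and at 11.29 and 11.33 in mutants 2 and 3, all above the wild-type mice at 7.01 to 7.38. Cyp27b1, which activates vitamin D, was at 7.09, 8.57, 7.68 and 8.97 against 6.42 to 6.81.

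Cytosolic ribosomal proteins rose together. The list held 44 rises among 59 genes (74.6%) and no fall, and 43 rises without mutant 3. Over all genes 2.96% were called higher, and at an unadjusted p under 0.05 limma put 50 ribosomal genes higher and 0 lower. The median log2 difference was 0.382 with 12 arrays and 0.354 without mutant 3, against 0.004 and -0.008 over all genes. The list mean was 10.65 to 10.79 in mutants, 10.39 to 10.48 in heterozygotes and 10.30 to 10.41 in wild-type mice. All 4 mutants lay above all 4 wild-type arrays for 47 of the genes, against 5.35% of all genes. Rps12 was at 10.88, 10.77, 10.92 and 10.65 in mutants and at 9.93, 9.93, 9.70 and 9.70 in wild-type mice (log2 difference 0.99, SE 0.08, adjusted p = 1.57e-05). Rps28 was at 11.23 to 11.48 against 10.26 to 10.70, and Rpsa, the laminin receptor protein of the small subunit, at 10.63 to 10.93 against 9.97 to 10.09. The smallest called rise was 1.15-fold and the largest 1.99-fold, and 8 reached 1.5-fold. Some of the brightest members were not called: Rps6 lay between 13.25 and 13.34 in mutants and between 13.13 and 13.19 in wild-type mice (adjusted p = 0.0645), and Rpl41 between 12.82 and 12.98 and between 12.81 and 12.96 (adjusted p = 0.552). Ribosomal protein genes have many processed copies in the genome that probes may also read. Counts stayed between 43 and 45 in each alternative fit, and the median between 0.354 and 0.413, centring and quantile normalisation included. Eef1b2, Eif3e and Gas5, of elongation, initiation and a growth-arrest host transcript, were named after their values were seen and rose by 0.53, 0.46 and 0.55. The 76 mitochondrial ribosomal proteins had 4 rises and 6 falls, and 2 and 5 without mutant 3, with a median of -0.004.

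**Figure D5:**
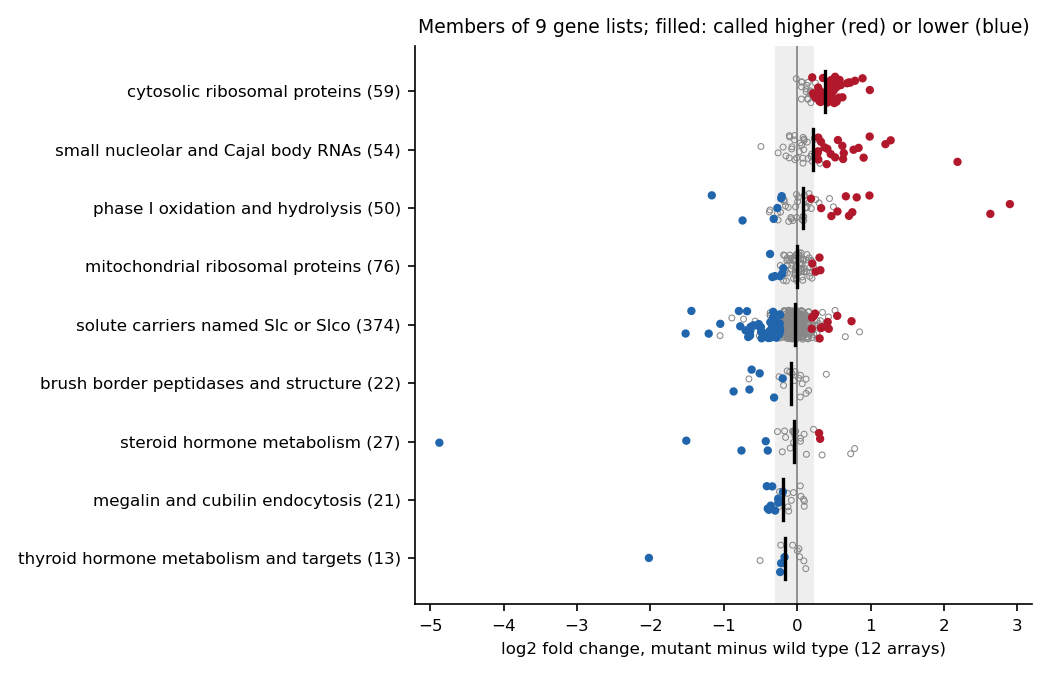
Log2 fold change, mutant minus wild type with 12 arrays, of each member of 9 lists, with called members filled and the list median as a black bar. The grey band holds the middle 90% of all genes; 44 of 59 cytosolic ribosomal proteins are called higher, and the 9 called megalin and cubilin genes are all lower.

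Small nucleolar and Cajal body RNAs guide the modification of ribosomal and spliceosomal RNA. Of 54 measured, 21 rose (38.9%) and none fell in each fit, against 2.96% and 2.52% of all genes called higher, and 29 were higher and 1 lower at an unadjusted p under 0.05 by limma. Rises numbered 16 to 23 over the alternatives at this threshold and 13 at an adjusted p under 0.01, and 1 or 2 members were called lower with the replicate block or without wild type replicate 1 or 3. The list mean was 8.20 to 8.27 in mutants, 8.02 to 8.11 in heterozygotes and 7.91 to 8.0 in wild-type mice. Those named here were picked after their values were seen. Snord118, the U8 RNA that acts in the maturation of the large ribosomal subunit RNAs, was at 8.80, 8.64, 9.24 and 8.66 in mutants and at 6.88, 6.60, 6.46 and 6.66 in wild-type mice (log2 difference 2.19, adjusted p = 9.67e-06). Snora33 was at 8.50 to 8.63 against 7.17 to 7.46, and Snora44 at 9.61 to 10.24 against 8.18 to 8.88. Many of these RNAs lie within introns of host genes, whose unspliced transcripts the probes may also read. Of 14 other structured RNAs 7 were called higher and none lower in each fit, with Rpph1 called only with mutant 3 and Rny1 only without it. Chosen after their values were seen, they included Rmrp, the RNA of the ribonuclease that cuts precursor ribosomal RNA, at 11.38 to 11.66 against 11.02 to 11.23, and the minor spliceosome RNA Rnu12, at 7.72 to 7.81 against 6.79 to 7.26. The abundant Rn7sk, a regulator of transcription elongation, was not called, at 13.71 to 13.86 against 13.64 to 13.76.

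Uptake of filtered protein through megalin and cubilin had 9 falls and no rise among 21 genes (42.9% called), and 8 falls without mutant 3. Over all genes 6.69% and 5.27% were called lower. Of the brightest group of genes 16% were called lower, or 505 of 3987 without mutant 3. At an unadjusted p under 0.05 limma put 13 of the 21 genes lower and 0 higher. The list mean was 9.72 to 9.87 in mutants and 9.95 to 10.05 in wild-type mice, with mutant 3 lowest. The lysosomal channel Tpcn1 was at 10.38, 10.14, 9.95 and 10.21 against 10.51 to 10.65, and the cystine transporter Ctns at 8.38 to 8.65 against 8.71 to 9.0. Lrpap1, the chaperone of megalin, was at 11.84, 12.04, 11.57 and 11.97 against 12.20 to 12.26 (log2 difference -0.39, adjusted p = 0.00932). Named after their values were seen, the receptor Cubn fell from 12.53 to 12.57 in wild-type mice to 11.98 to 12.30 in mutants, and Rab5a, of early endosomes, fell by 0.34 on the log2 scale. Megalin itself, Lrp2, was not called: it was at 12.75, 12.88, 12.23 and 12.76 in mutants and at 12.87 to 12.93 in wild-type mice (adjusted p = 0.176), and without mutant 3 its log2 difference was -0.10.

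At the brush border, which carries peptidases on the tubule surface, 6 of 22 genes fell and none rose (27.3% called), or 4 and 2 without mutant 3. Ace, which makes angiotensin II, was at 10.59, 10.54, 9.47 and 10.54 in mutants and at 11.11 to 11.19 in wild-type mice. Its log2 difference was -0.87 with mutant 3 and -0.59 without it (adjusted p = 0.000348). Mme, or neprilysin, fell by 0.65 and Dpp4 by 0.51 on the log2 scale. Of 374 solute carriers 46 fell and 12 rose (15.5% called), or 44 and 11 without mutant 3. Of the brightest genes 5.89% were called higher and 16% lower, so the share of solute carriers is no result about that list. The share of the 22 brush border genes was not far above that of the brightest genes, and the difference was not tested. Slc22a7, an organic anion transporter, was at 9.66, 9.35, 7.68 and 8.94 against 9.99 to 10.63, and Slc22a26 at 6.62 to 7.34 against 8.23 to 8.68. Slc9a8, a sodium-proton exchanger, was at 8.90 to 9.61 against 10.41 to 10.59 (log2 difference -1.20, adjusted p = 0.000137). The chloride exchanger Slc26a4, or pendrin, and the alkali sensor Insrr, both of intercalated cells, fell by 0.65 and 0.64 on the log2 scale, while the intercalated cell channel Aqp6 rose by 0.37 and the collecting duct channel Aqp3 by 0.30. The phosphate transporter Slc34a2 rose by 0.74 and the large neutral amino acid transporter Slc7a5 by 0.34. Cltrn, the partner of apical amino acid transporters, was at 11.73 to 12.04 against 12.25 to 12.41. No gene of 14 in the thick ascending limb list was called, in either fit; 4 were lower and 0 higher at an unadjusted p under 0.05 by limma.

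Further falls and rises were single genes of larger groups. Nr1d1, a clock repressor, was at 10.09, 9.76, 8.92 and 9.92 against 10.65 to 10.93, and Nr1i3, a xenobiotic receptor, was higher, at 6.93 to 7.11 against 6.53 to 6.67. Of 41 nuclear receptor genes 3 rose and 4 fell, or 2 and 4 without mutant 3. Among lysosomal genes, 4 of 50 rose and 6 fell, or 2 and 6, with the ceramidase Asah1 at 9.55 to 9.70 against 9.91 to 10.03 and the protease Ctsc at 8.73 to 9.15 against 8.52 to 8.63. The hypoxia-inducible carbonic anhydrase Car9 rose by 0.53 and the mitophagy receptor Bnip3 by 0.38, while the list of 24 hypoxia-inducible genes had 2 rises and 1 fall, or 3 and 0. The 31 one-carbon genes held 3 rises and 2 falls, or 3 and 3, with Phgdh, the entry to serine synthesis, at 7.90 to 7.95 against 7.51 to 7.80. Chaperones of the endoplasmic reticulum had 3 rises and 4 falls of 28, and 0 and 2 without mutant 3. Cytosolic tRNA synthetases had 4 rises and 1 fall of 21, and 1 and 1 without it, with Gars higher by 0.31. Olfactory and vomeronasal receptors, mostly silent in kidney, were called in 1.09% of 1192 cases.

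Some calls ended without mutant 3. Havcr1, the kidney injury molecule, was at 8.41, 8.18, 9.35 and 7.47 in mutants and at 6.06 to 6.60 in wild-type mice, with a log2 difference of 2.05 (adjusted p = 0.0359), or 1.71 (adjusted p = 0.0872) without that array. The groups did not overlap, but the call also ended without mutant 1, without mutant 2 and without each wild-type array, with log2 differences of 1.71 to 2.34 over the fits that left out 1 array. Heterozygotes 1 to 4 were at 6.25, 6.25, 8.86 and 8.70, so replicates 3 and 4 lay within the range of the mutants. Their spread entered the fit. The call held with only mutant and wild-type arrays and ended with array weights or the trended robust prior. Without mutant 3 the calls of Angptl4 (log2 difference 0.94 to 0.75), Cd68 (0.65 to 0.55), Sec14l3 (-0.79 to -0.65) and Serpina1f (-0.68 to -0.59) ended too, with adjusted p = 0.0687, 0.083, 0.102 and 0.0569. Each of these also ended without several other arrays, so they lay close to the threshold and did not turn on mutant 3 alone. In the other direction Slc16a14, of the monocarboxylate transporter family, was at 10.30, 9.48 and 8.93 in mutants 1, 2 and 4 and at 11.02 in mutant 3, and it was called lower only without mutant 3 (adjusted p = 0.08 with it and 0.00967 without). Etv1, which was also called without mutant 1, and the betaine methyltransferase Bhmt became called falls, and the leukocyte genes Cd52 and Cd53 called rises. Cd53 was at 7.73, 8.79 and 8.21 in mutants 1, 2 and 4, at 7.0 in mutant 3 and at 7.07 to 7.23 in wild-type mice.

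Markers of some other cell types were lower in mutants, and their part in these results was not tested. Over all genes 6.69% were called lower, or 5.27% without mutant 3. Of the brightest group of genes it was 16%, or 505 of 3987 without mutant 3. The marker lists are short, and their counts were not tested against either share. Distal convoluted tubule markers fell in 3 of 4 cases, or 2 without mutant 3, with means of 9.54 to 10.45 in mutants and 10.69 to 10.75 in wild-type mice. Endothelial markers fell in 3 of 8 cases, or 2, with means of 8.86 to 9.24 against 9.38 to 9.53. Smooth muscle and pericyte markers fell in 3 of 6 in both fits, and podocyte markers in 2 of 4. Thick ascending limb, urothelium, adipocyte, T cell, and B and plasma cell markers had no called member in either fit. Principal cell markers had 1 rise of 4 in both fits, and intercalated cell markers 1 of 4 only without mutant 3. Macrophage markers had 1 rise and 1 fall of 10, or 0 and 1 without mutant 3. Erythroid markers had 1 rise of 3 only without mutant 3. Neutrophil markers averaged 7.18 on mutant 2 and 5.71 to 5.89 on the other mutants, against 5.68 to 5.83 in wild-type mice. The plasma cell gene Jchain was at 10.04 and 10.45 in mutants 1 and 4, at 7.03 and 7.23 in mutants 2 and 3, and at 7.05 to 7.98 in wild-type mice (adjusted p = 0.405). Neither adrenal cortex nor neutrophil markers had a called member in either fit, and limma gave 0 of 12 and 0 of 7 at an unadjusted p under 0.05.

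Promoters of the genes that fell by at least 1.5-fold were read for 10 short motifs on both strands, in windows of 300 bases around the gene start from RefSeq, assembly GRCm38.p6. Of the 126 genes 94 had a window. The interferon-stimulated element, GAAA and GAAA with NN between them, was in 13.8% of these windows and in 3.88% of the 15560 windows of all tested genes, and the D-box TTANGTAA in 7.45% and 2.41%. These windows had a median GC content of 53.7% against 57.5%. In the 1050 windows of all genes called lower, the interferon element was in 5.14% and the D-box in 1.9%. The larger D-box share was thus seen only among falls of at least 1.5-fold, and the interferon share was much closer to that of all genes. The interferon element was in 3.85% of the 52 windows of genes that rose by at least 1.5-fold and in 4.2% of those of all genes called higher, near the share of all, and in 17.1% of the 35 windows of risen ribosomal protein genes. The amino acid response element TGATGNAA was also in 3.85% of the windows of genes that rose by at least 1.5-fold, and in 3.62% of all. Of the other motifs, the E-box CACGTG was in 8.51% of the windows of genes that fell by at least 1.5-fold (9.52% of all). These windows held the antioxidant core TGACNNNGC in 12.8% (15.2%), the TATA box TATAAA in 14.9% (13.6%) and the CCAAT box CCAAT in 43.6% (41.7%). The cAMP element TGACGTCA was in 0 of them and 2.72% of all, the glucocorticoid or androgen element in 1.06% and 0.418%, and the direct repeat bound by PPAR in 0 and 0.0514%. The windows printed here show where these letters stand in the genes whose calls held in each fit without 1 array and whose match lies upstream with its full flanks. The match is in capitals, 5′ to 3′ on the strand of the gene, and Ifit1, Ifit3, Gbp3 and Alb hold another match each. Binding was not measured. Those of the interferon-induced genes Ifit1, Ifit3 and Gbp3 and of Akr1c18 read as the reverse complement. The first 4 hold the interferon element and the last 3 the D-box.
Ifit1, chr19:34640760-34640819, plus strand: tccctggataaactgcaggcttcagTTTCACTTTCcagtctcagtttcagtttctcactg
Ifit3, chr19:34583348-34583407, plus strand: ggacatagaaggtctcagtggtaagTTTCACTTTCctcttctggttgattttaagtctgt
Gbp3, chr3:142559974-142560033, plus strand: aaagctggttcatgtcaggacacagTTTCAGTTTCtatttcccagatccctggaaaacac
Slc26a4, chr12:31560097-31560156, minus strand: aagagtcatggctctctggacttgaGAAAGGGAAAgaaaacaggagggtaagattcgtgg
Akr1c18, chr13:4150806-4150863, minus strand: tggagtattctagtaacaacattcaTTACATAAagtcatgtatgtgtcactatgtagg
Alb, chr5:90460622-90460679, plus strand: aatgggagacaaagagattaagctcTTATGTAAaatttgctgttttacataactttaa
F13b, chr1:139501580-139501637, plus strand: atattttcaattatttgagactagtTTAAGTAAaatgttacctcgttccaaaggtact

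The genes of these windows were chosen by their fall, and their levels are given as a description. Ifit1, which binds viral RNA, was at 6.91, 7.27, 6.78 and 7.54 in mutants and at 7.83 to 8.02 in wild-type mice (log2 difference -0.77, adjusted p = 0.00331). Ifit3 was at 8.42 to 9.44 against 9.72 to 9.81, and the guanylate-binding protein Gbp3 at 7.41 to 7.83 against 8.24 to 8.54. F13b, a subunit of coagulation factor XIII, was at 9.12 to 9.59 against 10.04 to 10.52. Ifit1, Ifit3, Gbp3 and F13b were named here after their values were seen.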

How the data were processed

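Whole-kidney RNA of 12 mice was read on Affymetrix gene arrays. The authors deposited log2 values; the submitters' processing notes list RMA and Expression Console 1.2.1. RMA puts all arrays on 1 distribution, so a shift shared by most genes would not be seen. The sample descriptions name a mouse array and the labelling text a human one; the probe sets matched mouse genes. Of 35552 probe sets 21785 had 1 gene symbol, and each gene was read from its brightest one (19934 genes). Fits used limma 3.58.1 in R 4.3.3 (lmFit, eBayes, 3 groups, Benjamini-Hochberg), with 9 residual degrees of freedom, or 8 without mutant 3; code was tested on simulated data. The p-values measure only the spread between these arrays, whose number limits the precision. Sample numbers run group by group, so their order cannot be told apart from genotype.

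The members and lists (38 gene lists, 18 marker lists) were chosen with earlier results of these data known. Named genes come from calls that hold in each fit without 1 array, with groups apart and a mean of at least 6 in one. They are the 12 largest rises and falls and up to 3 per list. Mmut, 5 adrenal markers, 5 calls that end without mutant 3 and 5 that appear without it were added. Unnamed models, small RNAs and receptor families were left out. Others are marked as named after their values were seen. Alternatives were a replicate block, leaving out each array, a mean of at least 6, the mean of probe sets, each probe set alone, only 8 arrays, array weights, a trended robust prior, centring, quantile normalisation and a threshold of 0.01. Lists were counted, not tested.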

Additional observations from a re-analysis of the deposited data

Results flagged for a closer look

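In 4 mutant or 4 wild-type arrays, single values lay far from the other 3 in 15 of 198 checks of the named genes (7.58%). The 5 adrenal markers among these genes were named because mutant 3 was known to be high for them, and without them it was 10 of 188 (5.32%), where chance gives about 1 in 20. Mutant 3 accounted for 8 of the 15. It was high for the adrenal genes Cyp11a1 (10.61), Cyp11b1 (12.65), Cyp21a1 (11.27), Star (11.99) and Hsd3b1 (8.06). It was low for Ace (9.47), Alb (7.56) and Slc26a4 (8.72). Mutant 4 was high for Asah1 (9.70) and mutant 1 for Mrps16 (9.63), a mitochondrial ribosomal protein. Among wild-type mice, replicate 1 was low for F5 (7.26) and for the chaperonin subunit Cct5 (9.51), replicate 3 low for Cyp4a12b (6.32) and Slc22a7 (9.99), and replicate 2 low for Nr1d1 (10.65).

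Outside the gene tests, 895 of 13767 probe sets without exactly 1 gene symbol differed between mutants and wild-type mice by the same test (6.50%), with 547 higher and 348 lower. Among genes the falls outnumbered the rises, and here the rises were more frequent.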

How the results depend on the processing

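With 12 arrays 1925 genes were called, and leaving out 1 array gave 1019 to 1928. The count was 1154 with only the 8 mutant and wild-type arrays, 702 at an adjusted p under 0.01, and 2366 with each probe set on its own. Without mutant 3, where 1553 were called, it was 1034 with only mutant and wild-type arrays. The replicate number as a block gave 1552 and 955 calls in the fits with and without mutant 3. Correlations of same-numbered mutants and wild-type mice differed in sign (-0.239, -0.028, 0.168 and 0.024). With so few arrays per group these values cannot decide whether the numbers paired the mice. The share of falls was 69.3%, and 66.8% to 71.5% after quantile normalisation and centring. Of 89 called named genes 84 kept call and direction in each alternative, and the exceptions were Havcr1, Angptl4, Cd68, Sec14l3 and Serpina1f; since named genes were chosen for holding without each array, or as calls that end without mutant 3, this tally is no measure of stability. Cyp11a1, Cyp21a1 and Star, not called, ran from -0.10, -0.02 and -0.05 without mutant 3 up to 1.69, 1.86 and 1.74 without another mutant. The arrays give no background signal, so what dim signal limits was read only from the share of calls by level.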

Other observations

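The heterozygotes did not sit with the wild-type mice for every gene. Of the 207 genes called with at least 1.5-fold between mutant and wild type, 50 (24.2%) had a heterozygote mean nearer to the mutants, 17 of 81 rises and 33 of 126 falls. Chromosomes 6 and 7 held 32 of the 207 genes and 15 of the 50, and the other chromosomes 175 and 35. The others differed among themselves. Chromosome 6 held 18 and 8 and chromosome 7 held 14 and 7, while chromosome 15 held 10 and 5 and X 10 and 4. Chromosomes 4 and 5 each held 9 and 0. The pattern was thus not particular to chromosomes 6 and 7. The 50 genes included Fabp1 on chromosome 6, with heterozygotes at 9.35 to 9.81 against 6.47 to 6.84 in wild-type mice. They also included Nat8f5 and Nat8 on chromosome 6, with heterozygote means of 10.57 and 10.68. Ggct, an enzyme of glutathione turnover on the same chromosome, was at 7.20 to 7.71 in heterozygotes, 7.23 to 7.56 in mutants and 8.06 to 8.49 in wild-type mice. On chromosome 7 the heterozygotes were high for Klk1b22 (11.84) and the biliverdin reductase Blvrb (9.58). These counts are descriptions; the genes were picked after their values were seen and the difference between chromosomes was not tested.

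Spread differed between groups. The median SD over genes was 0.099 in mutants, 0.082 without mutant 3, 0.075 in heterozygotes and 0.085 in wild-type mice.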
